A study of Homo sapiens with 6 samples.

Results

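The genes described here are the protein arginine methyltransferases and WDR77, the WD-repeat partner of PRMT5. They were chosen by symbol, 10 of the 57773 genes in the deposited count table: PRMT1, PRMT2, PRMT3, CARM1, PRMT6, PRMT8, PRMT5, PRMT9, PRMT7 and WDR77. All 10 were found in the table, and all 10 passed the filter on low counts that kept 22010 genes for testing. The rule names genes and uses no measured value, though it was written with earlier results of these data known.

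RNA was sequenced from cells of the human embryonic kidney line HEK293 after disruption of ZNF146 or ZNF507, genes for zinc finger proteins of chromosome 19. Cells had been transiently transfected with PX459 plasmids that carry Cas9 and puromycin resistance together with 4 guides to ZNF146 (sgZNF146), 4 guides to ZNF507 (sgZNF507) or no guide (EV, empty vector control). Every group was selected with puromycin for 36 h and grown for 2 weeks in total, so the controls also carried Cas9 and the drug treatment. Each group had 2 replicates, 6 libraries in all, and each library came from a cell population with no clones picked. The counts used here do not give the share of edited cells in the sgZNF146 and sgZNF507 libraries. The paper reports frequent indels at the guide sites in RNA reads, and both proteins essentially undetectable by western blot.

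Protein arginine methyltransferases move a methyl group from S-adenosylmethionine to the guanidine nitrogens of arginine. Type I enzymes make asymmetric dimethylarginine, type II enzymes make symmetric dimethylarginine and the type III enzyme makes only monomethylarginine. PRMT5, the main type II enzyme, works in a complex with WDR77 (also called MEP50), which holds the substrate. Methylarginine is abundant on histones, on Sm proteins of the spliceosome and on RNA-binding proteins with glycine- and arginine-rich stretches. The comparison asked of these genes is whether their transcript levels differed when either zinc finger gene had been disrupted.

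Because Cas9 guides can act at sites that resemble their targets, the 8 guides were compared with the genomic sequence of the 10 genes on GRCh37, on both strands. The 4 guides to ZNF507 are shown because they define the perturbed group with calls in the table, and the sites below them because the PRMT8 site had the fewest mismatches of any in the members and the CARM1 site the fewest of those in an exon with an NGG. Letters in capitals differ from guide 1 to ZNF507.
ZNF507 guide 1: tgggcttcaagttcctcc
ZNF507 guide 2: attgtttccggacaaactt
ZNF507 guide 3: ctggcttctagatgtaata
ZNF507 guide 4: aggttggctcttgtcaactc
PRMT8 intron site: tgggcttcaTgGtcctcc
CARM1 exon site: tgggcttcaGgtAcTtcT

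The PRMT8 site lay at chr12:3665567-3665584 on the minus strand, in an intron, 175.0 kb from the start of the gene. It had 2 mismatches to the guide, and the NGG motif that Cas9 needs beside a site was found there only if the listed guide is read in the opposite direction. It was the sole site with 3 or fewer mismatches among the 554198 bases of the member genes. On the whole of chromosome 12 this guide, the shortest at 18 nt, had 16 sites with up to 2 mismatches. Of these, 5 had an NGG when either reading of the guide was allowed. The CARM1 site, at chr19:11024710-11024727 on the minus strand, had 4 mismatches and an NGG in the listed direction. In PRMT5 and WDR77 the closest match of any guide had 5 mismatches, and 7 with an NGG in either reading. Whether any of these sites was cut was not measured.

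Library totals ran from 22724439 to 28524025 counts in genes. ZNF507 lay at 47.2 and 48.7 CPM (counts scaled to a common, TMM-adjusted library total) in the sgZNF507 libraries against 72.0 and 75.5 in EV, with adjusted p = 0.00195 by the edgeR quasi-likelihood fit across all genes (Benjamini-Hochberg adjusted, as for every adjusted p given here). ZNF146 transcripts were at 99.2 and 103 CPM in the sgZNF146 libraries and at 115 and 105 in EV, which did not pass the test. In the sgZNF507 libraries they were at 88.4 and 101 CPM, also below EV (log2 fold change -0.21, edgeR unadjusted p = 0.0162, adjusted p = 1.00). Transcript level does not measure a frame shift, so this does not check the disruption of ZNF146. Of 8 HEK293 marker genes 6 were matched by symbol, and all 6 were counted in every library. Of 7 nephron genes 5 had at most 5 counts in every library and the other 2 had 7 to 50. Of 4 fibroblast genes, COL1A1 held 1495 to 1933 counts per library. COL1A2 held 5 to 16, DCN 20 to 34 and LUM 10 to 21. Their sum, mostly COL1A1, was 68.7 to 74.9 CPM in sgZNF507. It was 62.7 to 64.3 in EV and 61.3 to 65.3 in sgZNF146, and its part in the results was not tested.

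The members differed widely in transcript level, and this order was nearly the same in all 3 groups. Levels between genes were compared as CPM per kb, the CPM divided by the summed length of all annotated exons in kb. These exons come from a later annotation than the Ensembl (version 82) models used for counting. Exons absent from those models would add length but no counts, and their part in these levels was not tested. In EV, PRMT1 stood at 59.4 ± 2.20 CPM per kb (SD, n = 2) and PRMT5 at 58.1 ± 0.139, and their 2 libraries overlapped. WDR77 at 40.5 ± 3.06 and CARM1 at 39.7 ± 1.62 CPM per kb came next and also overlapped each other. The level of PRMT5 was 1.43 times that of WDR77.

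A middle tier followed, 3.68 times below CARM1 on this length. It held PRMT2 at 10.8 ± 0.476, PRMT6 at 10.5 ± 0.575, PRMT3 at 7.81 ± 0.349, PRMT9 at 7.46 ± 0.512 and PRMT7 at 5.33 ± 0.026 CPM per kb in EV. Within it, PRMT2 overlapped PRMT6 and PRMT3 overlapped PRMT9, and these pairs were the only neighbours that changed places in another group. PRMT8, known from brain, was at 0.0894 ± 0.0268 CPM per kb, 59.6 times below PRMT7.

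**Figure D1:**
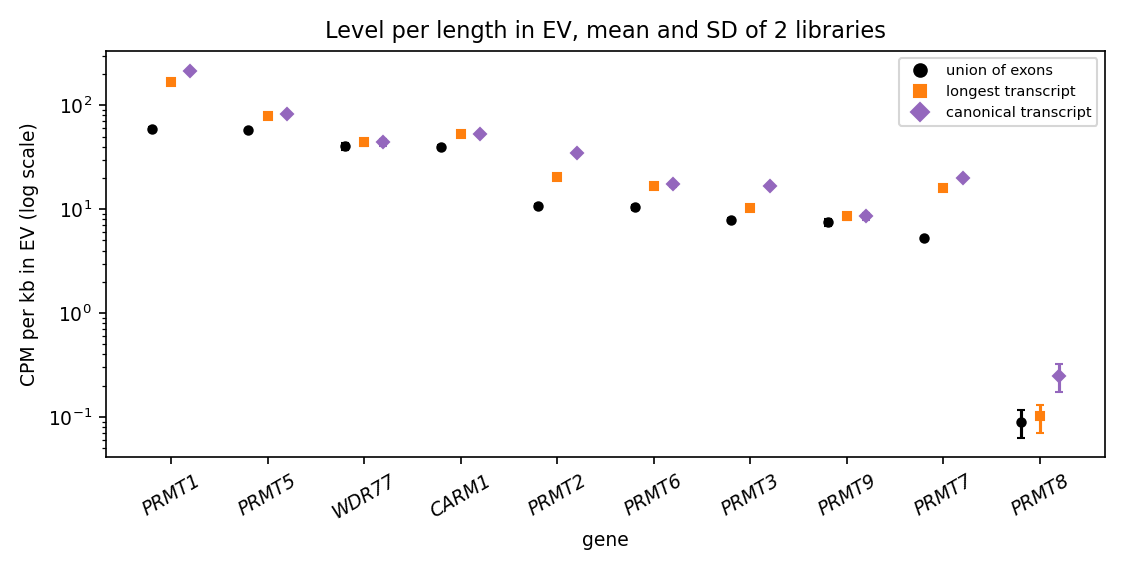
Mean level of each member in EV, in CPM per kb on a log axis, with SD bars. Lengths are those of all exons, the longest transcript and the canonical transcript. Over all exons PRMT1 and PRMT5 lead, and WDR77 and CARM1 follow. On that length 5 genes lie between 5 and 11 CPM per kb, and PRMT8 lies at 0.0894. Over the canonical transcript CARM1 at 53.3 lies above WDR77 at 44.3, PRMT2 is at 34.8 and PRMT8 at 0.249.

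The length given to a gene moved some of these ranks. PRMT1 was 1.02 times PRMT5 over all exons, but 2.15 times PRMT5 over the longest transcript and 2.60 times over the canonical transcript, a length chosen after the data were seen. PRMT7 has 13884 bases of exon in all and 4652 in its longest transcript, and moved from rank 9 to rank 7. Over canonical transcripts PRMT2 stood at 34.8 CPM per kb, WDR77 at 44.3 and CARM1 at 53.3, so the gap above the middle tier was much narrower. PRMT7 over PRMT8 was 157 over the longest and 79.5 over the canonical transcripts. PRMT5 over WDR77 stayed above 1, at 1.78 over the longest and 1.86 over the canonical transcripts.

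PRMT5 (ENSG00000100462, chromosome 14, 23389734 to 23398617, minus strand, 17 exons) makes most symmetric dimethylarginine in the cell. Its level was 190.1 and 190.7 CPM in EV, 182.6 and 188.0 in sgZNF146, and 183.5 and 189.8 in sgZNF507. The sgZNF146 and sgZNF507 libraries all lay below both EV libraries, but the gap between the nearest libraries of EV and sgZNF507 was smaller than the spread within sgZNF507. The log2 fold change against EV was -0.03 (SE 0.06, 95% interval -0.15 to 0.10) in sgZNF507 and -0.04 (interval -0.17 to 0.09) in sgZNF146. Neither passed edgeR's test, with adjusted p = 1.00 in both. As folds, the intervals ran from 0.899 to 1.07 and from 0.892 to 1.06. PRMT5-AS1 on the opposite strand shares 924 exon bases with PRMT5 and held 8 to 17 counts.

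WDR77 (ENSG00000116455, chromosome 1, 111982512 to 111991878, minus strand, 10 exons) is the beta-propeller subunit that binds PRMT5. It was measured at 114.5 and 102.9 CPM in EV, 103.5 and 109.3 in sgZNF146, and 110.2 and 115.1 in sgZNF507. The EV libraries spanned nearly the whole range, and both perturbed groups overlapped them. The log2 fold change was 0.05 (SE 0.07, interval -0.10 to 0.21) in sgZNF507 and -0.03 (interval -0.18 to 0.12) in sgZNF146 against EV. Both sgZNF507 libraries lay above both sgZNF146 libraries, by 0.08 (SE 0.07, interval -0.07 to 0.24) on the log2 scale, which did not pass (edgeR, adjusted p = 1.00). The level per kb of PRMT5 over that of WDR77 was 1.36 and 1.52 in EV, 1.45 and 1.41 in sgZNF146, and 1.36 and 1.35 in sgZNF507, so the EV libraries bracketed or nearly bracketed all others. An unnamed same-strand gene (ENSG00000243960) shares 673 exon bases with WDR77 and held 35 to 56 counts per library. ATP5PB on the opposite strand shares 90 exon bases with it and held 2837 to 3675 counts.

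PRMT9, the other type II enzyme, methylates the splicing factor SF3B2. PRMT9 (ENSG00000164169, chromosome 4, 148558936 to 148605314) lay at 30.93 and 28.07 CPM in EV, 31.01 and 28.66 in sgZNF146, and 28.95 and 30.45 in sgZNF507. The 3 groups overlapped. Its log2 fold change was 0.01 (interval -0.19 to 0.21) in sgZNF507 against EV.

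PRMT7 (ENSG00000132600, chromosome 16, 68344854 to 68394755) is the type III enzyme, which makes monomethylarginine. It was at 73.71 and 74.22 CPM in EV, 71.48 and 73.97 in sgZNF146, and 71.82 and 76.74 in sgZNF507. The EV libraries lay close together, and sgZNF507 reached to both sides of them. For PRMT7 the log2 fold change was 0.01 (interval -0.14 to 0.15) in sgZNF507 and -0.02 in sgZNF146. The opposite-strand gene SMPD3 shares 1931 exon bases with PRMT7 and held 63 to 106 counts.

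**Figure D2:**
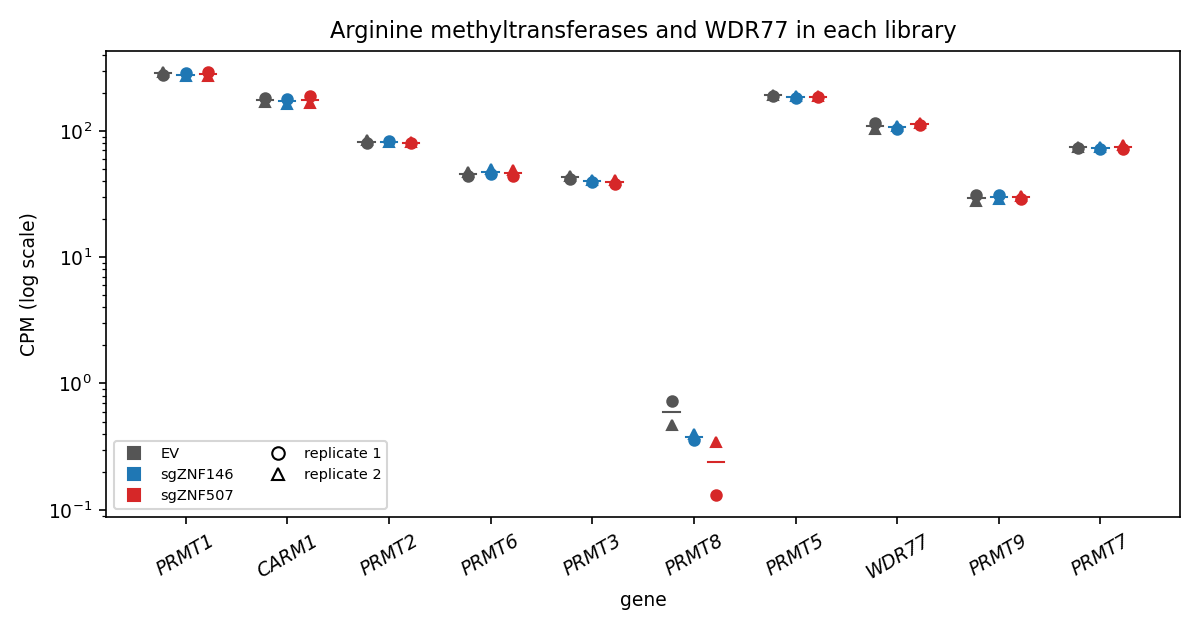
CPM of each of the 10 members in each library, with points for the 2 replicates of each group and a line at the group mean. For 9 genes the highest library is at most 1.16 times the lowest, and for PRMT8 it is 5.55 times.

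PRMT1 (ENSG00000126457, chromosome 19, 50179043 to 50192286) makes most asymmetric dimethylarginine and had the highest CPM of the members, above 97.9% of all genes tested. It was at 277.5 and 292.4 CPM in EV, 285.1 and 269.8 in sgZNF146, and 289.5 and 273.7 in sgZNF507. The groups overlapped, and the highest library was 1.08 times the lowest. Against EV its log2 fold change was -0.02 (SE 0.06, interval -0.16 to 0.12) in sgZNF507 and -0.04 in sgZNF146. PRMT1 lies on the chromosome of both disrupted genes, 13.4 Mb beyond ZNF146 and 17.3 Mb beyond ZNF507.

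CARM1 (ENSG00000142453, chromosome 19, 10982229 to 11033751), a transcriptional coactivator that methylates histone H3, lies on the other side of them, 21.8 Mb before ZNF507. Its CPM was 180.6 and 170.5 in EV, 179.2 and 162.0 in sgZNF146, and 187.3 and 165.7 in sgZNF507. The groups overlapped throughout, and in each of them replicate 2 was the lower library. CARM1's log2 fold change was 0.01 (SE 0.07, interval -0.16 to 0.17) in sgZNF507 and -0.04 in sgZNF146. YIPF2, on the opposite strand, shares 891 exon bases with CARM1 and held 929 to 1273 counts. Reads can be told apart there only if the counting used strand, which is not given in the sources used here.

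PRMT3 (ENSG00000185238, chromosome 11, 20409104 to 20530884) is a cytoplasmic enzyme that methylates a protein of the small ribosomal subunit. It was at 41.46 and 44.17 CPM in EV, 39.52 and 40.98 in sgZNF146, and 37.97 and 40.94 in sgZNF507. Both perturbed groups lay below both EV libraries, by less than the spread between the EV libraries at the nearest points. The log2 fold change of -0.12 (SE 0.08, interval -0.29 to 0.06) in sgZNF507 was the largest in size among the 9 members other than PRMT8, with an unadjusted p = 0.177 and adjusted p = 1.00 in edgeR's test. In sgZNF146 it was -0.09 against the same EV libraries.

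PRMT2 (ENSG00000160310, chromosome 21, 48055507 to 48085036), which carries an SH3 domain and acts as a nuclear receptor coactivator, was at 79.42 and 84.53 CPM in EV. It measured 82.94 and 81.24 in sgZNF146 and 79.89 and 80.88 in sgZNF507. The perturbed libraries all fell inside the range of the EV libraries, while sgZNF507 lay below sgZNF146. The log2 fold change was -0.03 in sgZNF507 against EV, 0.00 in sgZNF146 against EV and -0.03 between the perturbed groups.

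PRMT6 (ENSG00000198890, chromosome 1, 107599296 to 107610258, 1 exon) is a nuclear enzyme that methylates histone H3. It was at 43.75 and 47.28 CPM in EV, 45.19 and 49.72 in sgZNF146, and 43.83 and 48.68 in sgZNF507. The groups overlapped, and replicate 2 was the higher library in each. For PRMT6 the log2 fold change was 0.02 (interval -0.16 to 0.21) in sgZNF507 and 0.06 in sgZNF146.

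PRMT8 (ENSG00000111218, chromosome 12, 3490515 to 3703139) is a membrane-anchored relative of PRMT1 known from neurons, and it was close to the detection limit here. Its raw counts were 18 and 13 in EV, 9 and 10 in sgZNF146, and 3 and 10 in sgZNF507. Scaled to depth, these were 0.7231 and 0.4702 CPM, 0.3546 and 0.3975 CPM, and 0.1302 and 0.3452 CPM. On that scale both perturbed groups lay below EV and sgZNF507 lay below sgZNF146, although 10 counts in a sgZNF507 library are no fewer than either sgZNF146 count. Summed over a group, its level was 0.401 to 0.837 CPM in EV, 0.226 to 0.587 in sgZNF146 and 0.133 to 0.427 in sgZNF507, as exact 95% Poisson intervals that cover counting error only. The intervals of EV and sgZNF507 overlapped slightly.

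For PRMT8 the log2 fold change was -1.24 (SE 0.53, interval -2.38 to -0.10) in sgZNF507 against EV, with unadjusted p = 0.0351 and adjusted p = 1.00 in edgeR's quasi-likelihood test. It was -0.65 (interval -1.71 to 0.41) in sgZNF146 against EV. The change in sgZNF507 ran from -2.13 to -0.77 when each library in turn was left out. Without the EV libraries PRMT8 did not pass the low-count filter, which by itself favours a lower value in the other groups. The intronic guide match shown above concerns a guide given to the sgZNF507 cells alone, while the sgZNF146 libraries were also below EV, and its part in the result was not tested.

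Set beside all genes, none of the 10 members passed adjusted p under 0.05 in edgeR's test in sgZNF507 against EV, where 0.182% of genes did. The count was also 0 in sgZNF146 against EV, where 0.0% of genes passed, and 0 between sgZNF507 and sgZNF146, where 0.173% did. At an unadjusted p under 0.05 the counts were 1 (PRMT8), 0 and 0, where 3.39%, 2.43% and 4.03% of genes passed. DESeq2 called 0 members in each comparison.

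The libraries of the groups did not overlap for 3 members in sgZNF507 against EV, all lower (PRMT3, PRMT5 and PRMT8). Over all genes tested, 29.3% did not overlap, 15.3% being lower. The same 3 members lay lower in sgZNF146, where the background was 28.6% in all and 14.6% lower, but both comparisons use the same EV libraries. Between sgZNF507 and sgZNF146, WDR77 was higher and PRMT2 and PRMT8 were lower without overlap, against 32.1% of all genes. In both directions together these shares are near the background, while the 3 of 10 members that lay lower than EV stand beside 15.3% and 14.6% of all genes, PRMT8 among them having passed the filter only through EV.

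The log2 fold change was below 0 for 5, 7 and 5 of the 10 members in sgZNF507 against EV, sgZNF146 against EV and sgZNF507 against sgZNF146, beside 51.0%, 50.5% and 51.2% of all genes. The members' median log2 fold change was -0.01, -0.03 and 0.00 in the 3 comparisons, and the median over all genes tested was -0.00 in each. The median size without sign was 0.03, 0.04 and 0.03 for the members and 0.09, 0.08 and 0.10 for all genes, many of which have lower counts. Among the 6557 genes with a mean CPM between those of PRMT9 and PRMT1, it was 0.05, 0.04 and 0.05, beside 0.02, 0.04 and 0.03 for the 9 members in that range.

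**Figure D3:**
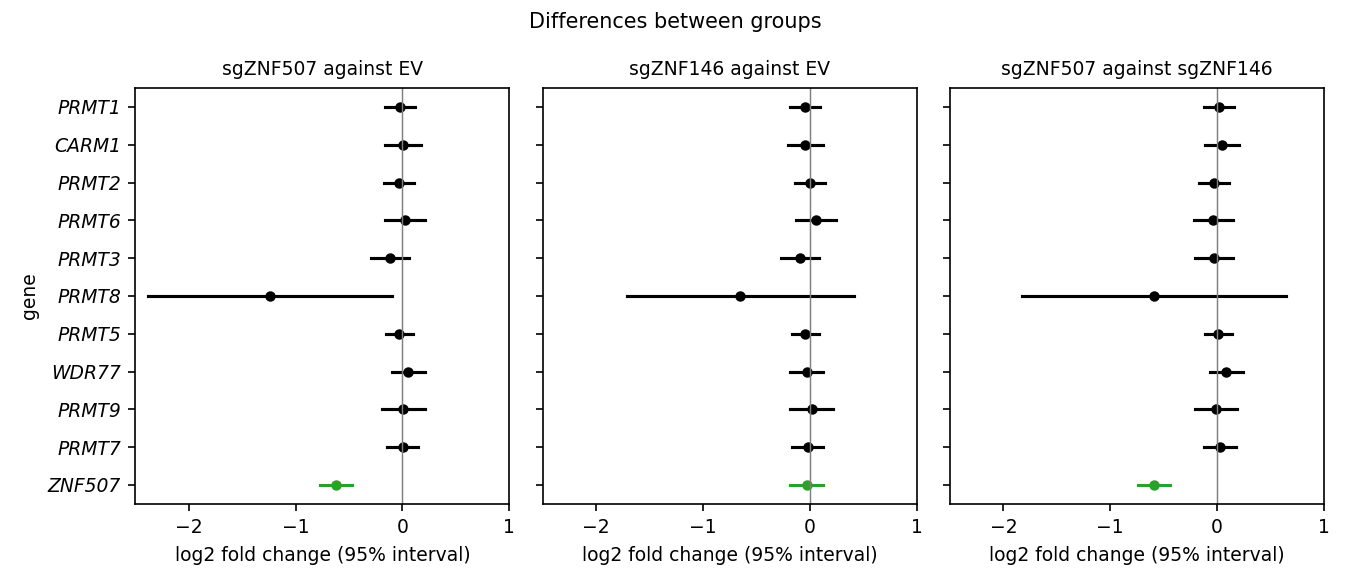
Log2 fold change of each member in the 3 comparisons, with 95% intervals from the edgeR fit and a line at 0. The 9 members other than PRMT8 lie between -0.12 and 0.08, and the PRMT8 interval in sgZNF507 against EV runs from -2.38 to -0.10.

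Over the 9 members other than PRMT8, the 95% intervals in sgZNF507 against EV reached from -0.29 to 0.21, that is from 0.815-fold to 1.16-fold. In sgZNF146 against EV they reached from 0.831-fold to 1.19-fold, and between the perturbed groups from 0.856-fold to 1.18-fold. In the CPM range of these members, 25 genes passed in sgZNF507 against EV, and the smallest of their changes was 0.39 in size. With 2 libraries a group, an exact permutation test of a single gene cannot give a p below 0.333, so the tests rest on the spread shared across genes.

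The difference of CARM1 between replicate numbers was larger in size than any of its differences between groups. This comparison was chosen after the data were seen and the labels do not say what the numbers share. Replicate 2 was 0.944 times replicate 1 in EV, 0.904 times in sgZNF146 and 0.885 times in sgZNF507. In an edgeR fit with group and replicate number, the log2 difference was -0.14 (SE 0.04, interval -0.22 to -0.05, adjusted p = 0.0308), a threshold that 7.25% of all genes passed. It was the only member past it.

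PRMT6 stood the other way, at 1.08, 1.10 and 1.11 times replicate 1, but did not pass (log2 difference 0.13, edgeR adjusted p = 0.133). PRMT3, PRMT5 and PRMT7 were also higher in replicate 2 in every group, at adjusted p = 0.443, 0.746 and 0.61 in the same edgeR fit. In all, 5 of the 10 members kept 1 direction in all 3 groups, and 39.6% of all genes did.

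**Figure D4:**
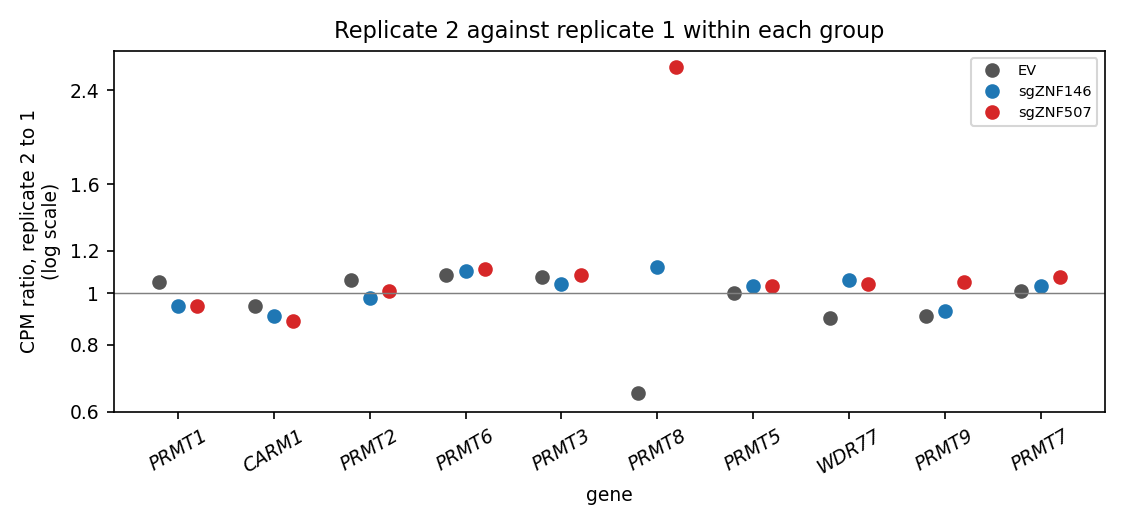
Ratio of replicate 2 to replicate 1 of each member within EV, sgZNF146 and sgZNF507, with a line at 1. CARM1 lies below 1 in all 3 groups, at 0.944, 0.904 and 0.885, and PRMT6 above 1 in all 3.

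Genes of the arginine methylation pathway were taken from 9 lists holding 59 genes, the member WDR77 included. Of these 54 were tested, 53 without WDR77. None passed adjusted p under 0.05 in edgeR's test in any of the 3 comparisons, and 3, 0 and 1 had an unadjusted p under 0.05 in sgZNF507 against EV, sgZNF146 against EV and sgZNF507 against sgZNF146, beside 3.39%, 2.43% and 4.03% of all genes. The 3 in sgZNF507 against EV were all PRMT1 substrates that bind RNA. Median log2 fold changes below are for sgZNF507 against EV.

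The 4 partners of the PRMT5 complex, WDR77 among them, had a median of 0.01. CLNS1A (pICln), which brings Sm proteins to the complex, was at -0.04, RIOK1, an alternative adaptor, at 0.01, and COPRS, which directs the complex to histones, at 0.00. The 5 tested PRMT5 substrates of the Sm and Lsm family and Cajal body also had a median of 0.01. SNRPB was at 0.10 (SE 0.07) and SNRPD1 at -0.13 (SE 0.07), both core Sm proteins, and neither passed.

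The 4 regulators of PRMT1 had a median of 0.04. BTG1, a PRMT1-binding antiproliferative protein, was at 0.14 (SE 0.08) and did not pass. The other arginine methyltransferases, METTL23 at 0.06 and the mitochondrial NDUFAF7 at -0.17 (SE 0.10), did not pass. In the S-adenosylmethionine list of 11 genes the median was -0.04. AHCY, which clears S-adenosylhomocysteine, was at 0.02, and MAT1A, the liver form of the synthetase, was at -1.25 (SE 0.59) on 3 to 14 counts per library.

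The 8 tested readers of methylarginine had a median of -0.03. SND1, a Tudor-domain reader, was at 0.02. SMN1, the Tudor protein of Sm assembly, was at -0.27 (SE 0.19), a value made uncertain by its near-identical copy SMN2. The 7 CARM1 substrates had a median of -0.01, with PABPC1, the poly(A)-binding protein, at -0.07 (SE 0.06). The 4 tested enzymes of deimination and demethylation had a median of 0.15. All 4 log2 fold changes lay above 0, beside 51.0% of all genes below 0, and none passed. JMJD6 was at 0.09 and PADI3 at 0.55 (SE 0.39) on 10 to 20 counts. In sgZNF146 against EV 2 of the 4 lay above 0 and 2 below.

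The PRMT1 substrates that bind RNA had a median of -0.15 over 9 tested genes. All 9 log2 fold changes were below 0, from -0.18 to -0.03, beside 51.0% of all genes below 0, and none passed the adjusted threshold. NCL (nucleolin, an rRNA-processing protein) was at 1575 and 1588 CPM in EV, 1626 and 1488 in sgZNF146, and 1390 and 1413 in sgZNF507. The sgZNF507 libraries lay below all others, with a log2 fold change of -0.17 (SE 0.06, edgeR unadjusted p = 0.0165, adjusted p = 1.00). HNRNPA2B1, an hnRNP protein that packages nascent RNA, and SERBP1, a ribosome-associated protein, were named after their values were seen. HNRNPA2B1 was at -0.18 (SE 0.07) and SERBP1 at -0.16 (SE 0.07). In sgZNF146 against EV the median of the list was -0.02, and 8 of 9 lay below 0.

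**Figure D5:**
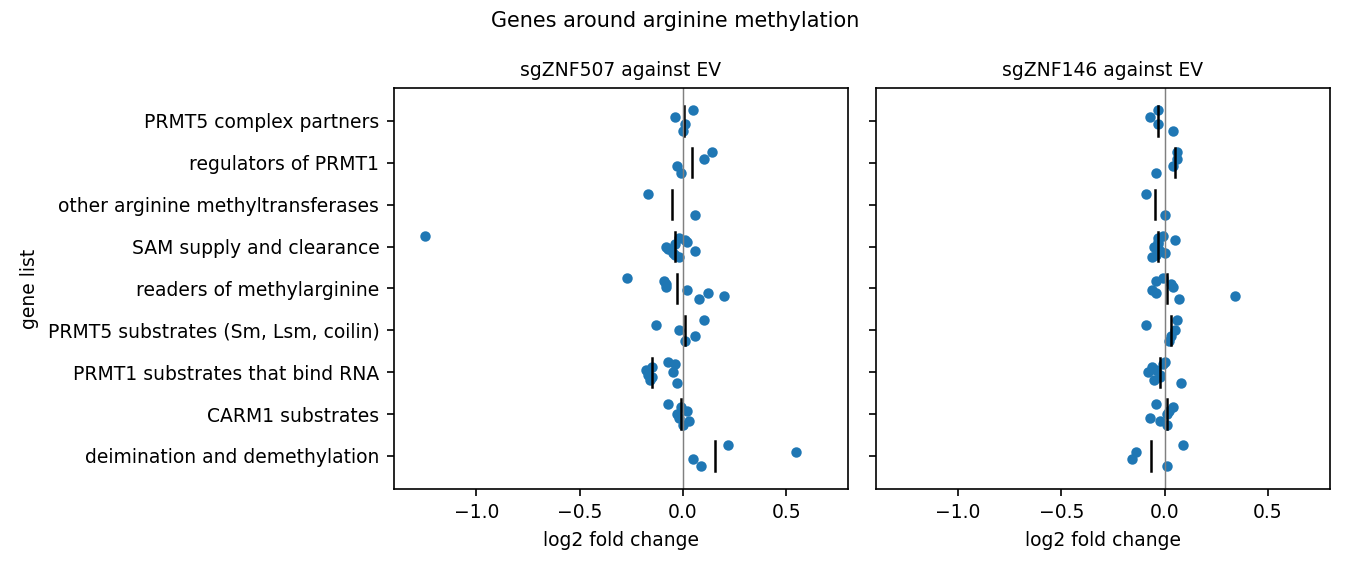
Log2 fold change against EV of each tested gene in the 9 pathway lists, 1 point per gene, for sgZNF507 and sgZNF146. No point passes adjusted p under 0.05, and in sgZNF507 all 9 PRMT1 substrates lie between -0.18 and -0.03.

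Across the 6 libraries, genes among the 10084 searched whose log2 CPM ran most like that of PRMT5 included DSC3, a desmosomal cadherin (Pearson r = 0.986), RMDN1 (0.982), CEP83, a centriole protein (0.977), and SETD4 (0.976). For WDR77 they were CDC23, a subunit of the anaphase-promoting complex (0.989), LRPPRC, a mitochondrial RNA-binding protein (0.981), FASTKD5 (0.979), TCTN3 (0.967) and BMPR1A (0.962). PRMT5 and WDR77 had r = 0.333 with each other. These values describe 6 libraries, all 3 groups together, were picked as the highest of many, and carry no test.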

How the data were processed

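The authors sequenced stranded, ribosome-depleted libraries as paired 50 bp reads, aligned them to hg19 with TopHat2 and counted reads per Ensembl (version 82) gene with featureCounts. The deposited values are raw counts per gene. The counting options, strand included, are not given in the sources used here. The labels number the replicates, and the paper describes them as biological duplicates.

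Counts were fitted for all 6 libraries with edgeR 4.0.16 (R 4.3.3): filterByExpr, TMM factors, glmQLFit and glmQLFTest with 1 coefficient per group, and Benjamini-Hochberg adjustment over 22010 genes with a threshold of 0.05. CPM values use TMM-adjusted totals. SE values come from the F statistic and are approximate. Exons and lengths come from a later GENCODE annotation on GRCh37, not from the models used for counting, and were matched to 96.1% of gene IDs. The fit was tested on simulated data. Within each group the replicates differed beyond counting noise.

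The members, pathway lists and tests were chosen with earlier results of these data known. Pathway genes were named by a rule: per list, any gene past the threshold, otherwise the gene with the highest level per length and the one with the lowest unadjusted p in sgZNF507 against EV. The PRMT5 partners are all named, outside the rule. The genes most like PRMT5 and WDR77 are the 5 protein-coding genes with the highest Pearson r among those with a mean CPM of at least 10. Some genes that these rules name are not reported here. TAF15 and PADI6, 2 listed genes, were not matched by symbol and were not analysed here. Alternatives were DESeq2 1.42.0, other scalings and filters, fits of 4 libraries, a replicate block and leaving out each library.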

Additional observations from a re-analysis of the deposited data

How the results depend on the processing

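No member was past the adjusted threshold in any comparison under any alternative that gave it an adjusted p, replicate block included. The count of genes called over the whole table did move. It was 40 in sgZNF507 against EV, with 101 without a low-count filter, 121 with edgeR's replicate block, 63 with DESeq2's block and 12 to 44 when each library was left out, the lowest without EV replicate 1. In sgZNF146 against EV it was 0, with 19 without the filter, 33 with edgeR's block, 3 with either tool on 4 libraries and 0 to 3 with a library left out. In sgZNF507 against sgZNF146 it was 38, with 112, 196 and 75 in the first 3 of these settings and 13 to 37 with a library left out, the lowest without sgZNF146 replicate 1. The labels do not say what the replicate numbers share. Replicate 1 deviations correlated between groups at r = 0.138 to 0.176 across genes.

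Of 266 members' values under 9 settings that keep all replicates, 263 kept their direction. The exceptions were PRMT2 in sgZNF146 against EV without the filter (-0.001) and PRMT9 in sgZNF507 against sgZNF146 without the filter (0.004) and with DESeq2's replicate block (0.001). PRMT8 was not tested where 10 counts were required in every library, nor by edgeR on 4 libraries in sgZNF507 against sgZNF146. DESeq2 gave it no adjusted p with the replicate block in either comparison of sgZNF507, nor on 4 libraries in sgZNF507 against sgZNF146. Leaving out each library in turn, 31 of 180 values changed sign, all within these ranges. In sgZNF507 against EV, PRMT1 ran from -0.06 to 0.03, PRMT2 from -0.07 to 0.01, CARM1 from -0.09 to 0.10, PRMT6 from -0.04 to 0.09, WDR77 from -0.03 to 0.14, PRMT9 from -0.06 to 0.09 and PRMT7 from -0.03 to 0.05. In sgZNF146 against EV, PRMT2 ran from -0.04 to 0.04, CARM1 from -0.12 to 0.03, PRMT6 from -0.01 to 0.13, WDR77 from -0.11 to 0.05 and PRMT9 from -0.06 to 0.09. In sgZNF507 against sgZNF146, PRMT1 ran from -0.02 to 0.07, PRMT3 from -0.07 to 0.02, CARM1 from -0.04 to 0.15, PRMT6 from -0.10 to 0.04, PRMT5 from -0.005 to 0.03, PRMT9 from -0.06 to 0.06 and PRMT7 from -0.006 to 0.08. The cause of these moves was not tested.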

Other observations

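PRMT5-DT (ENSG00000257285), a divergent noncoding transcript annotated to begin 199 bases from the start of PRMT5, was named after its values were seen. Its counts were 13 and 13 in EV, 22 and 25 in sgZNF146, and 11 and 18 in sgZNF507. The sgZNF146 libraries lay above all others. The log2 fold change was 0.90 (SE 0.37) in sgZNF146 against EV, with unadjusted p = 0.0292 and adjusted p = 1.00 in edgeR's quasi-likelihood test, and 0.16 (SE 0.40) in sgZNF507 against EV. PRMT5 itself was at -0.04 in the same sgZNF146 comparison.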
